A study of Mus musculus with 8 samples.

Results

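SNARE genes encode the membrane proteins that pull a vesicle and its target membrane together until they fuse, and a small set of regulators loads, guards and recycles them. The genes were chosen by symbol alone, as the VAMP, syntaxin, SEC22, SNAP, BET1, GOSR, VTI1, YKT6, USE1 and BNIP1 genes, the syntaxin-binding proteins, NSF and its adaptors. Of 14860 genes with a transcript cluster of their own on the array, 43 matched, from 45 transcript clusters. All 43 matched a RefSeq entry with the same symbol. Snap91 was taken in by its symbol only, since it encodes a clathrin assembly protein and no SNARE. Symbols that fit the rule but had no transcript cluster of their own were not counted among the members.

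RNA was compared between exosomes and the cells that released them. The exosome group held 4 samples of exosomes from serum-free medium that B16F0 cells had conditioned for 24 h. The cell group held 4 samples of the parental B16F0 cells after 24 h in serum-free medium. B16F0 is a pigmented mouse melanoma line of unmodified genotype as far as the labels say, no agent was added to either group, and each sample of total RNA was hybridised to 1 Affymetrix mouse exon array. All results concern this 1 line, and no label tells whether the samples of 1 group were grown apart, so the p-values cover the spread between samples only, and that spread may be technical.

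In a SNARE complex 4 helices zip together, named Qa, Qb, Qc and R after the residue at their centre. Syntaxins supply the Qa helix, VAMP-type proteins the R helix, and SNAP-25 relatives supply Qb and Qc from a single chain. Each membrane route has its own set, so that traffic from the endoplasmic reticulum (ER) to the Golgi uses other members than fusion at lysosomes or at the plasma membrane. After fusion the ATPase NSF, held by the SNAP adaptors, takes the complex apart for reuse. Exosomes form inside multivesicular endosomes and leave the cell when such an endosome fuses with the plasma membrane, a step that itself needs SNARE proteins. The arrays measured the RNA of these genes, not the proteins.

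Levels are the deposited log2 values, and no source used here says whether the arrays of both groups were normalized together. Their distributions differed, so the size of a deposited difference depends on that step, and values under other scalings are given beside it. A lower level in exosomes does not say whether fewer vesicles carried the RNA or each carried less, since these cannot be told apart in bulk RNA. The exosome arrays had a lower upper range, with a 75th percentile of 7.13 ± 0.06 in exosomes and 8.53 ± 0.06 in cells (SD, n = 4 each). Their background was higher. Chemosensory receptor genes, known from sensory organs and used here as background, had a median of 4.21 ± 0.08 in exosomes and 3.61 ± 0.05 in cells. A gene was counted as above background where it exceeded the 95th percentile of these genes on the same array, a threshold of 6.49 ± 0.06 in exosomes and 5.74 ± 0.03 in cells. The identity of the line was visible in both groups, since all 6 measured pigment cell markers of 7 listed were above background on every array of either group. All 6 were called lower in exosomes, with a summed log2 level of 62.8 to 64.0 in exosomes and 75.8 to 76.4 in cells. Of 15 markers of leukocytes, fibroblasts, endothelium, erythroid cells and neurons 13 were measured and 8 of these, among them Ptprc, Pecam1 and Cdh5, were above background on no array. The summed log2 level of the 13 was 70.9 to 71.4 in exosomes and 68.0 to 70.0 in cells. Of the 13, 5 were called higher and 0 lower, where 14.6% of all genes were called higher and 52.1% lower. Of these 5 only Col1a1 was above background, while Ptprc, Itgam, Syp and Snap25 were above it on no array. Syn1 and Rbfox3 were above background on all cell arrays, Col1a1 and Col1a2 on all arrays of both groups, and the part of these 13 in the results was not tested.

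Most of the 43 genes were lower in exosomes in the deposited values, 1 was far higher, and a small group differed little. Calls were made with limma across all 23332 transcript clusters at a Benjamini-Hochberg adjusted p below 0.05. By this rule 32 of the 43 genes (74.4%) were lower in exosomes, 6 were higher and 5 were not called. The background of such calls was high, because 52.1% of all 14860 genes were called lower and 14.6% higher. At least 2-fold lower were 26 members, or 60.5%, where 37.8% of all genes were, and at least 2-fold higher was 1 member, Sec22c, where 2.58% of all genes were. The median log2 fold change of the members was -1.37, and that of all genes -0.39. Exosome and cell values did not overlap for 39 of 43 members, and for 65.7% of all genes. These shares of all genes were not matched for the level in cells. The median cell level was 8.73 for the members and 6.99 for all genes. Among all genes with a cell level of 8 to 9 the median log2 fold change was -1.58, with 87% called lower, and 11 members lay there. At 7 to 8, 9 to 10 and 10 to 11, with 7, 9 and 8 members, 84.7%, 87.1% and 87.1% of all genes were called lower. Below 5, with 4 members, 2.98% were. Whether the members differ from genes of a like cell level was not tested. Across the 43 members the mean level in exosomes correlated with that in cells with r = 0.725 and rho = 0.731, as a description of genes that share the same 8 arrays.

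**Figure D1:**
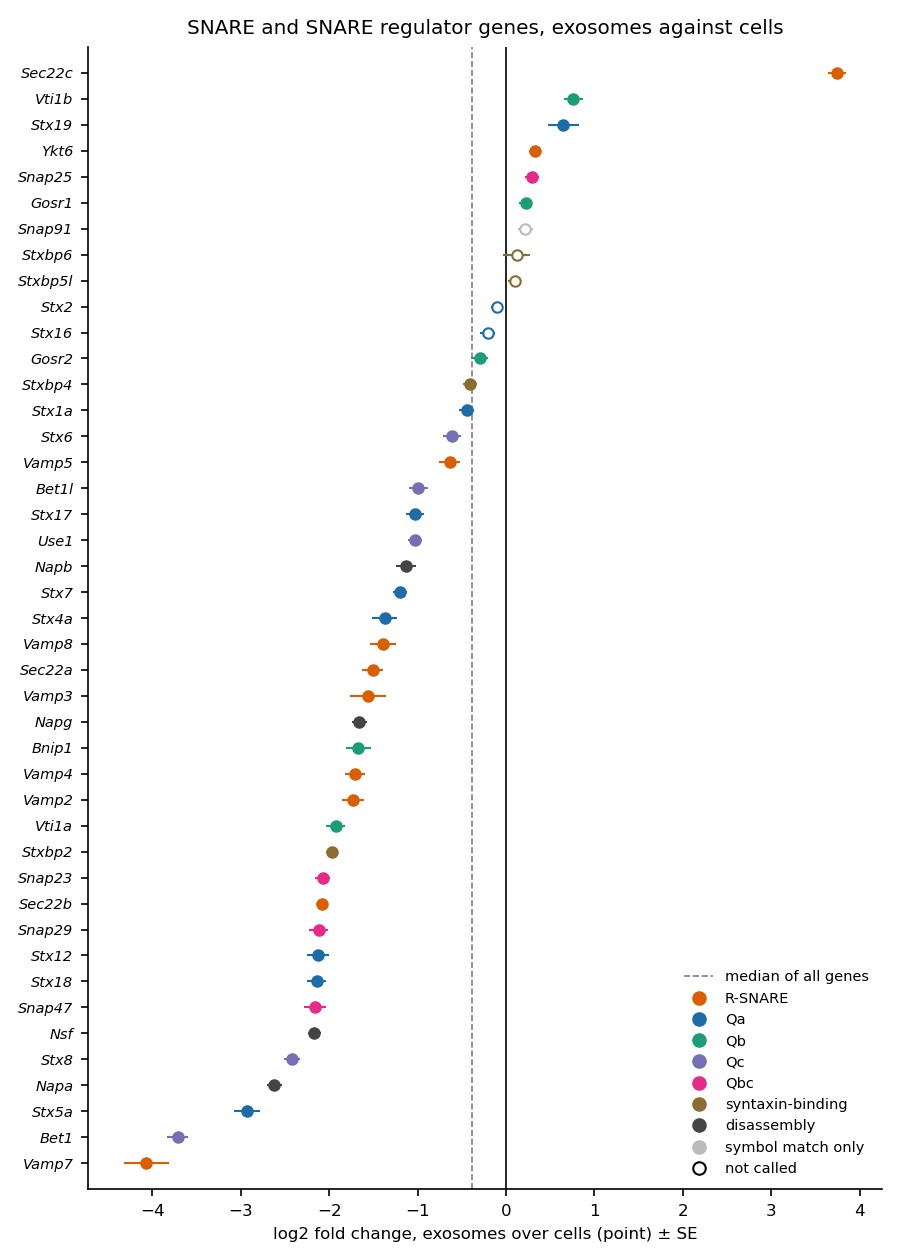
Log2 fold change, exosomes over cells, of each of the 43 genes on the x axis, with points as limma estimates and bars as SE (n = 4 arrays per group), coloured by helix class or role. Filled points were called at an adjusted p below 0.05, the dashed line is the median of all genes at -0.39, and Sec22c at 3.74 and Vamp7 at -4.07 are the ends of the range.

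The split between higher and lower depended on how the arrays were scaled. As deposited it was 6 higher and 32 lower. Quantile normalization gave 13 higher and 22 lower, cyclic loess 13 and 20, and setting each array to the median of its background genes 1 and 40. All genes had a median log2 fold change of 0.03 with the first, 0.01 with the second and -0.98 with the last of these, so directions are relative to these values. A core of 21 members kept its call and direction under each of the 4 scalings. Sec22c was higher, and 20 members were lower, namely Vamp7, Bet1, Stx5a, Napa, Stx8, Nsf, Snap47, Stx18, Stx12, Snap29, Sec22b, Snap23, Stxbp2, Vti1a, Vamp2, Vamp4, Bnip1, Napg, Sec22a and Napb. Of all genes, 30.9% were called lower and 2.45% higher under each of the 4, shares that are not matched for the level in cells. The size of these falls was less stable than the call. The log2 fold changes of the 20 ran from -4.07 to -1.13 as deposited, from -3.03 to -0.35 after quantile normalization and from -2.65 to -0.29 after cyclic loess. After centring on background genes they ran from -4.66 to -1.72. Centring lowers every log2 fold change by the same 0.59, so each fall was larger than as deposited by construction. This scaling could therefore not turn a fall into a rise. Folds and bounds in the following paragraphs are those of the deposited values unless a scaling is named.

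**Figure D2:**
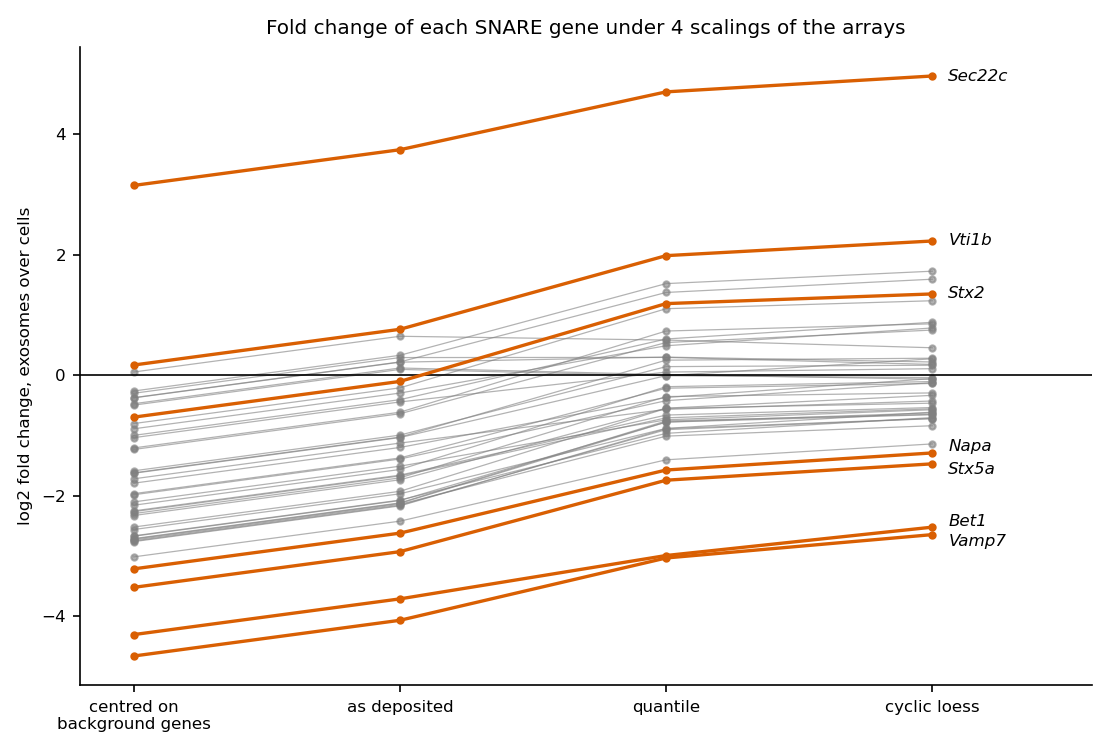
Log2 fold change, exosomes over cells, of each of the 43 genes (lines) on the y axis, under the 4 scalings on the x axis. Sec22c stays above 3 throughout, from 3.15 to 4.97, Vamp7 and Bet1 stay lowest, and the genes near 0 as deposited cross it.

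Sec22 genes showed the widest contrast among relatives. Sec22b is the R-SNARE of traffic between ER and Golgi, and Sec22a and Sec22c are its relatives in the early secretory pathway. Both relatives were placed with the R-SNAREs by family alone, and whether their proteins hold a SNARE helix was not checked. Sec22c had levels of 11.96, 12.08, 12.09 and 11.98 on the exosome arrays and of 8.46, 8.08, 8.19 and 8.41 on the cell arrays. Every exosome value thus lay more than 3 log2 units above every cell value, with a spread between exosome arrays of 0.07 (SD). Its log2 fold change of 3.74 ± 0.10 SE was the second highest of 14860 genes, or 13.4-fold higher in exosomes (n = 4 arrays per group, limma adjusted p = 3.24e-08).

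Sec22b had 7.48, 7.52, 7.66 and 7.54 in exosomes, against 9.62, 9.61, 9.61 and 9.68 in cells, and fell 4.23-fold (log2 fold change -2.08 ± 0.07, limma adjusted p = 4.99e-08). Its groups did not overlap, and its level in exosomes stayed above background on all 4 arrays. Its fall was smaller under 2 other scalings (-0.78 after quantile normalization and -0.62 after cyclic loess). Sec22a had 5.84, 5.76, 5.98 and 6.08 in exosomes, none above background, against 7.50, 7.27, 7.26 and 7.66 in cells. As deposited it was at least 1.91-fold lower, a bound set by the threshold of 6.49 (limma adjusted p = 5.06e-06). Its log2 fold change was smaller in size after quantile normalization (-0.74) and cyclic loess (-0.57).

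At the other end of the range stood Vamp7, the R-SNARE of late endosomes and lysosomes, which also serves their fusion with the plasma membrane. Vamp7 had 6.66, 6.25, 7.49 and 7.23 in exosomes, against 11.00, 10.94, 11.12 and 10.85 in cells. Its exosome arrays spread more than those of any other member (SD 0.56), 3 of 4 were above background, and all lay more than 3 log2 units below the cells. It fell 16.8-fold (log2 fold change -4.07 ± 0.25 SE, limma adjusted p = 1.12e-06), the 23rd lowest value of 14860 genes. Leaving out single arrays moved the value between -4.26 and -3.85.

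**Figure D3:**
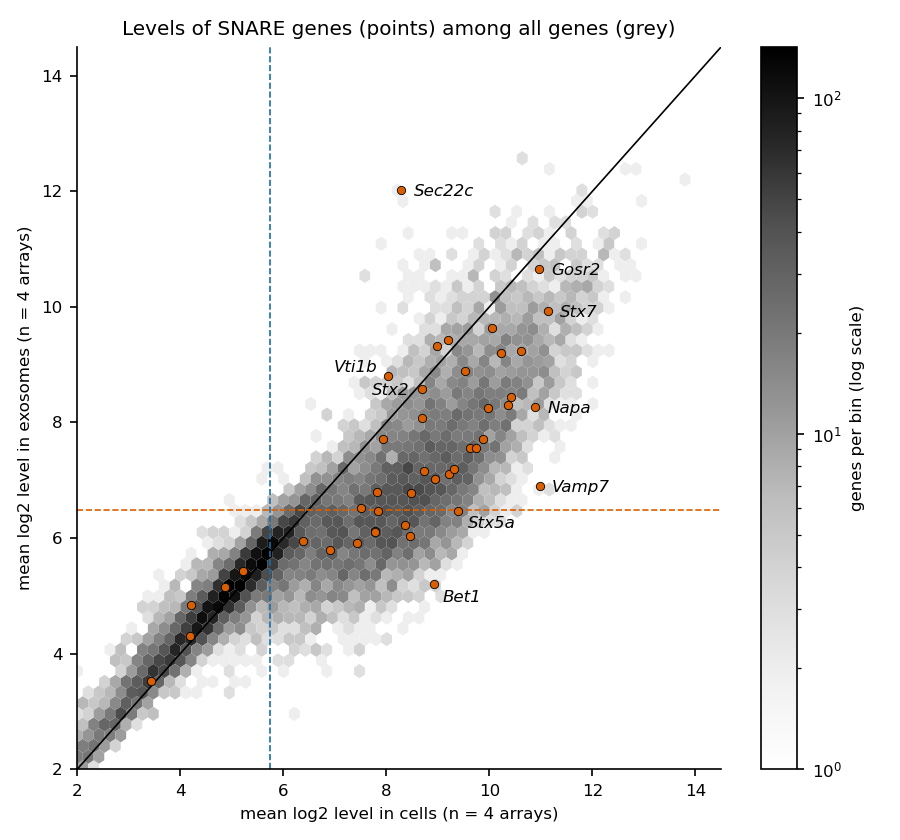
Mean log2 level in exosomes on the y axis against mean log2 level in cells on the x axis (n = 4 arrays each), for the 43 genes (orange points) over the density of all 14860 genes (grey, log scale). The solid line marks equal levels, the dashed lines the background thresholds of 6.49 in exosomes and 5.74 in cells, and Sec22c lies far above the line while Vamp7 and Bet1 lie along the lower edge of the cloud.

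The complex for transport from ER to Golgi pairs Stx5a (Qa), Gosr2 (Qb), Bet1 (Qc) and Sec22b (R), and its 4 genes did not move alike. All 4 were called lower as deposited, where 52.1% of all genes were, with values between -3.71 for Bet1 and -0.30 for Gosr2. Their median cell level was 9.51, and among all genes with a cell level of 9 to 10, 87.1% were called lower. Bet1 had 5.14, 5.02, 5.52 and 5.16 in exosomes, against 8.99, 8.77, 9.05 and 8.87 in cells, so its exosome signal lay within the background and it was at least 5.39-fold lower (limma adjusted p = 4.99e-08). Stx5a, the Golgi syntaxin, had 6.10, 6.52, 6.80 and 6.42 in exosomes and 9.46, 9.25, 9.42 and 9.43 in cells. It fell 7.61-fold (log2 fold change -2.93 ± 0.14, limma adjusted p = 2.66e-07), with 3 of 4 exosome arrays above background.

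Gosr2, in contrast, had 10.46, 10.69, 10.79 and 10.72 in exosomes and 11.10, 10.85, 10.99 and 10.91 in cells. Its groups were close together without overlap. Its fall of 1.23-fold (log2 fold change -0.30 ± 0.09, limma adjusted p = 0.0256) turned to a rise after quantile normalization (0.49) and cyclic loess (0.78). The call was also lost without exosome replicate 1, cell replicate 1 or cell replicate 3, with adjusted p of 0.0508, 0.0688 and 0.0634.

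Within the Golgi, Stx5a pairs with Gosr1 (Qb), Bet1l (Qc) and Ykt6 (R). Here 2 of 4 genes were higher in exosomes as deposited, where 14.6% of all genes were. Ykt6, a SNARE held in the membrane by lipid anchors, had 9.26, 9.36, 9.25 and 9.41 in exosomes and 9.03, 8.95, 9.00 and 8.97 in cells. The groups did not overlap, and it rose 1.26-fold (log2 fold change 0.33 ± 0.07, limma adjusted p = 0.00264), with larger log2 fold changes under 2 scalings (1.52 after quantile normalization and 1.73 after cyclic loess). It was lower after centring on background genes (-0.26). Gosr1 had 9.42, 9.32, 9.44 and 9.52 in exosomes and 9.25, 9.20, 9.24 and 9.13 in cells.

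Gosr1 thus rose 1.17-fold (0.22 ± 0.07, limma adjusted p = 0.0268), with larger log2 fold changes under 2 scalings (1.37 after quantile normalization and 1.59 after cyclic loess) and the direction turned by centring (-0.37). Its call was lost without exosome replicate 3 or 4 or without cell replicate 2, 3 or 4, with adjusted p of 0.057, 0.0622, 0.0597, 0.0514 and 0.0747. Bet1l had 6.45, 6.36, 6.73 and 6.52 in exosomes, with 2 of 4 arrays above background, and 7.55, 7.36, 7.43 and 7.70 in cells. It fell 1.99-fold as deposited (-0.99 ± 0.11, limma adjusted p = 4.86e-05), while quantile normalization (0.14) and cyclic loess (0.17) gave a difference of the other sign that was not called.

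For return from the Golgi to the ER, Stx18 (Qa), Bnip1 (Qb) and Use1 (Qc) join Sec22b. All 4 were called lower as deposited, where 52.1% of all genes were, with log2 fold changes between -2.14 and -1.03. Their median cell level was 9.00. Among all genes with a cell level of 8 to 9, 87% were called lower, and at 9 to 10, 87.1%. Stx18 had 6.44, 6.03, 6.08 and 6.36 in exosomes, none above background, and 8.38, 8.29, 8.44 and 8.38 in cells. As deposited it was at least 3.68-fold lower (limma adjusted p = 3.19e-07), with log2 fold changes of -1.01 after quantile normalization and -0.84 after cyclic loess. Bnip1, which also has a part in cell death, was called lower under each scaling, but 3 of its 4 exosome arrays lay in the background, so its fold is not settled.

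Use1 fell by 1.03 as deposited and was above background on all arrays, at 9.20 ± 0.10 in exosomes and 10.23 ± 0.09 in cells (SD, n = 4 each). After quantile normalization Use1 had a difference near 0 (-0.01), and after cyclic loess it was called higher (0.27).

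**Figure D4:**
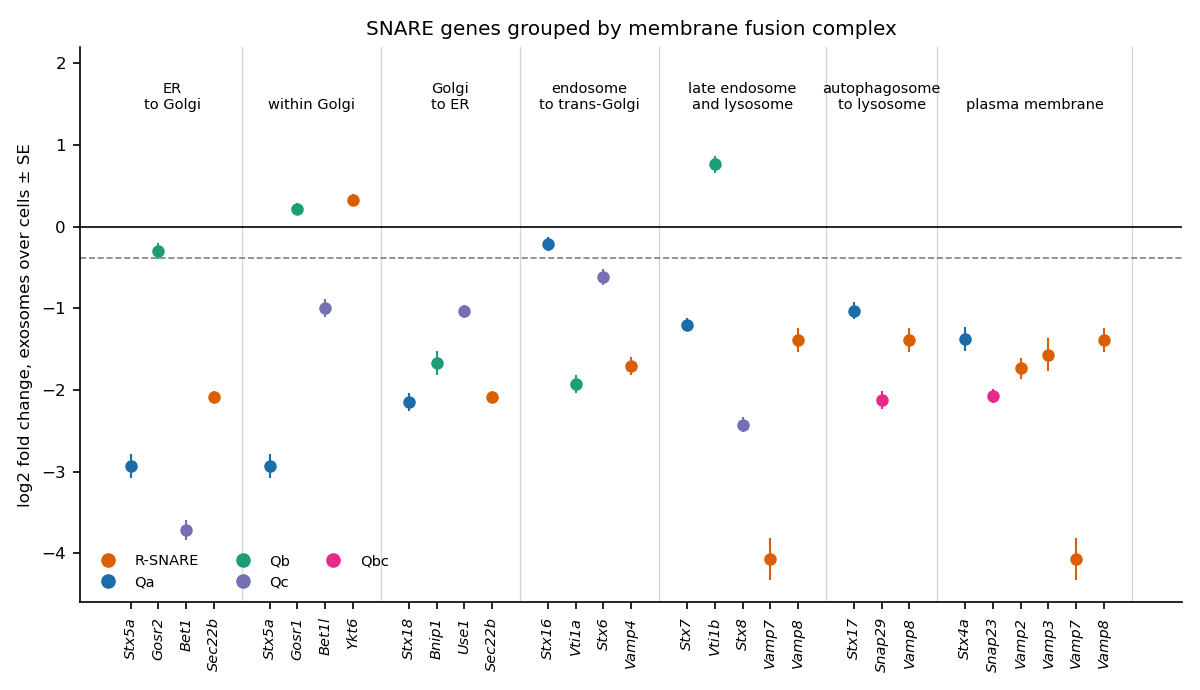
Log2 fold change, exosomes over cells ± SE (n = 4 arrays per group) of SNARE genes, grouped on the x axis by the membrane route of the complex they form, with genes of several complexes drawn in each. Within the late endosome and lysosome group the values run from 0.76 for Vti1b to -4.07 for Vamp7.

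Stx16 (Qa), Vti1a (Qb), Stx6 (Qc) and Vamp4 (R) serve return from endosomes to the trans-Golgi, and all 4 stayed above background on every exosome array. Vti1a had 6.74, 7.11, 7.19 and 7.06 in exosomes and 9.04, 8.89, 8.97 and 8.90 in cells, and fell 3.80-fold (log2 fold change -1.93 ± 0.11, limma adjusted p = 5.62e-07). Its fall was smaller after quantile normalization (-0.55) and cyclic loess (-0.46). Vamp4 fell 3.26-fold (-1.70 ± 0.11), with exosome arrays at 6.59 to 6.95 and cell arrays at 8.31 to 8.70, and likewise less after quantile normalization (-0.35) and cyclic loess (-0.29).

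Stx6 fell 1.53-fold (-0.61 ± 0.10), and Stx16 was not called (-0.21 ± 0.09, limma adjusted p = 0.0705). After quantile normalization both were called higher, Stx6 at 0.73 and Stx16 at 1.10, as they were after cyclic loess (0.85 and 1.24). Under those 2 scalings the Qa and Qc genes of this complex were higher and its Qb and R genes lower.

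At late endosomes and lysosomes Stx7 (Qa), Vti1b (Qb) and Stx8 (Qc) combine with Vamp8 or Vamp7 (R). Log2 fold changes of these 5 genes ran from -4.07 to 0.76, the widest range among the 7 complexes as deposited. Vti1b had 8.59, 8.75, 8.80 and 9.06 in exosomes, each above the 8.02, 7.93, 8.09 and 8.12 in cells. It rose 1.70-fold (log2 fold change 0.76 ± 0.11, limma adjusted p = 0.00027), with larger values after quantile normalization (1.98) and cyclic loess (2.23), while centring on background genes left a difference of 0.17 that was not called (adjusted p = 0.234).

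Stx8 had 5.89, 6.12, 6.00 and 6.14 in exosomes, none above background, and 8.50, 8.32, 8.56 and 8.45 in cells. As deposited it was at least 3.91-fold lower (limma adjusted p = 7.04e-08), with log2 fold changes of -1.40 after quantile normalization and -1.14 after cyclic loess. Stx7 had 9.81, 9.88, 10.00 and 10.05 in exosomes and 11.24, 11.03, 11.16 and 11.12 in cells, without overlap.

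Stx7 fell 2.30-fold as deposited (-1.20 ± 0.08) but by 0.06 on the log2 scale, without a call, after cyclic loess (adjusted p = 0.47). Vamp8, which works at late endosomes and in regulated secretion, fell 2.62-fold (-1.39 ± 0.15) with exosome arrays at 8.86 to 9.54 and cell arrays at 10.41 to 10.73, and its call was likewise lost after cyclic loess (-0.12). Stx12, the syntaxin of recycling endosomes, had 7.16, 7.01, 7.22 and 7.38 in exosomes and 9.56, 9.26, 9.35 and 9.10 in cells. It fell 4.37-fold (-2.13 ± 0.12, limma adjusted p = 6.73e-07) and stayed above background, with a smaller fall after quantile normalization (-0.78) and cyclic loess (-0.66).

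For fusion of autophagosomes with lysosomes, Stx17 (Qa) and Snap29 (Qbc) join Vamp8. Snap29 had 7.03, 7.12, 7.32 and 6.93 in exosomes and 9.41, 9.13, 9.25 and 9.10 in cells. It fell 4.34-fold (-2.12 ± 0.11, limma adjusted p = 3.76e-07), less so after quantile normalization (-0.76) and cyclic loess (-0.65). Stx17 fell 2.04-fold as deposited (-1.03 ± 0.10), at 6.80 ± 0.18 in exosomes and 7.82 ± 0.06 in cells (SD, n = 4 each), and was called higher after cyclic loess (0.28).

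At the plasma membrane Stx4a (Qa) and Snap23 (Qbc), found in most tissues, accept Vamp2, Vamp3, Vamp7 or Vamp8. All 6 genes were at least 2-fold lower as deposited, where 37.8% of all genes were. Their median log2 fold change was -1.65, at a median cell level of 10.17. Among all genes with a cell level of 10 to 11 the median was -1.68, and 87.1% were called lower. Snap23 had 8.21, 8.23, 8.29 and 8.46 in exosomes and 10.35, 10.31, 10.29 and 10.53 in cells. It fell 4.21-fold (-2.07 ± 0.09, limma adjusted p = 1.34e-07), less so after quantile normalization (-0.96) and cyclic loess (-0.70). Vamp2, the synaptic vesicle R-SNARE, had 8.09, 8.44, 8.08 and 8.37 in exosomes and 10.22, 9.90, 9.99 and 9.81 in cells. It fell 3.33-fold as deposited (-1.74 ± 0.12, limma adjusted p = 2.79e-06), and far less after quantile normalization (-0.55) and cyclic loess (-0.33).

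Vamp3, its relative outside neurons, had 7.05, 7.67, 6.61 and 7.34 in exosomes and 8.65, 8.68, 8.73 and 8.87 in cells. The groups stayed apart although the exosome arrays spread widely (SD 0.45), and the fall was 2.96-fold (-1.56 ± 0.21, limma adjusted p = 1.67e-04). Stx4a fell 2.59-fold, with 2 of 4 exosome arrays above background. After quantile normalization Vamp3 (-0.19) and Stx4a (-0.22) were no longer called, and so after cyclic loess (-0.10 and -0.14).

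Stx2, another plasma membrane syntaxin, was not called as deposited, at 8.58 ± 0.06 in exosomes and 8.69 ± 0.06 in cells (SD, n = 4 each, log2 fold change -0.10 ± 0.07, limma adjusted p = 0.222), and its groups overlapped. It was called higher after quantile normalization (1.19) and cyclic loess (1.35) and lower after centring on background genes (-0.70). Vamp5, described first in muscle, fell 1.56-fold as deposited (-0.64 ± 0.12) and was called higher after quantile normalization (0.54) and cyclic loess (0.75). Snap47, a SNAP-25 relative found in many tissues, had 7.36, 7.68, 7.97 and 7.83 in exosomes and 9.88, 9.82, 9.86 and 9.91 in cells. It fell 4.46-fold (-2.16 ± 0.13, limma adjusted p = 8.12e-07), less so after quantile normalization (-0.90) and cyclic loess (-0.72).

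Stx1a, Snap25 and Stx19 were dim on these arrays. Stx1a, the Qa-SNARE of synapses, was above background on all cell arrays at 6.38 ± 0.11 and on none of the exosome arrays at 5.94 ± 0.10 (SD, n = 4 each). It was called lower as deposited (limma adjusted p = 0.0019), but its cell level lay under the exosome threshold, so no fold is given. Snap25, its partner, and Stx19 were called higher (limma adjusted p = 0.0107 and 0.012), yet both lay below background on every array. Snap25 had 5.22, 5.11, 5.19 and 5.12 in exosomes and 4.71, 4.90, 4.89 and 4.97 in cells. Stx19 had 5.36, 4.54, 4.69 and 4.80 in exosomes and 4.32, 4.16, 4.03 and 4.30 in cells, with exosome replicate 1 highest. The background genes were themselves higher on the exosome arrays, and after centring on their median Snap25 was lower (-0.30) and Stx19 not called (0.05). Stxbp5l, Stxbp6 and Snap91 were also below background on all 8 arrays and were not called.

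Regulators that bind syntaxins were few. Stxbp2, a Munc18 protein that holds and templates syntaxins, was lower on every exosome array (8.33, 8.51, 8.50 and 8.45) than on the cell arrays (10.44, 10.40, 10.40 and 10.42). It fell 3.91-fold (log2 fold change -1.97 ± 0.07, limma adjusted p = 5.71e-08), less so after quantile normalization (-0.88) and cyclic loess (-0.61). Stxbp4, which binds Stx4a, fell 1.32-fold as deposited (-0.41 ± 0.08) and was called higher after quantile normalization (0.60) and cyclic loess (0.88). A second transcript cluster of Stxbp4 fell by 0.96, and a second one of Vamp5 was not called (-0.35).

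All 4 genes of SNARE disassembly were lower in exosomes under each of the 4 scalings, where 30.9% of all genes were. Their median cell level was 8.76, and among all genes with a cell level of 8 to 9, 87% were called lower as deposited. The share under each of the 4 scalings was not taken by cell level. Napa, the alpha-SNAP adaptor that brings NSF to the complex, had 8.19, 8.27, 8.25 and 8.36 in exosomes and 11.01, 10.79, 10.99 and 10.76 in cells. It fell 6.15-fold (log2 fold change -2.62 ± 0.09, limma adjusted p = 4.99e-08), less so after quantile normalization (-1.57) and cyclic loess (-1.29). Nsf, the ATPase itself, had 7.48, 7.58, 7.68 and 7.52 in exosomes and 9.77, 9.73, 9.67 and 9.77 in cells.

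Nsf fell 4.50-fold (-2.17 ± 0.07, limma adjusted p = 5.08e-08), less so after quantile normalization (-0.89) and cyclic loess (-0.72), and both it and Napa stayed above background in exosomes. Napg, the gamma-SNAP, had 6.07, 6.20, 6.13 and 6.07 in exosomes, none above background, and 7.92, 7.72, 7.63 and 7.84 in cells, and was at least 2.44-fold lower as deposited, with log2 fold changes of -0.66 after quantile normalization and -0.54 after cyclic loess. Napb, the beta-SNAP of brain, was at least 1.34-fold lower as deposited, also with no exosome array above background.

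Related genes could be compared with each other within each array, where an offset of the whole array drops out. Of 10 pairs 9 were measured, and for each the difference between the 2 log2 values was set against itself in exosomes and cells by a two-sided exact permutation test, adjusted over the 9 pairs. The log2 fold change, exosomes over cells, was more positive by 5.82 ± 0.08 (SE, n = 4 arrays per group) for Sec22c than for Sec22b. Against Sec22a the difference was 5.25 ± 0.10, a size that is not settled, since the exosome values of Sec22a lay in the background. All pairs were written with earlier results of these data known, the large rise of Sec22c among them, so these p-values describe these arrays and are not independent evidence. The log2 fold change was 2.72 ± 0.10 more positive for Bet1l than for Bet1, 2.69 ± 0.11 for Vti1b than for Vti1a, and 0.52 ± 0.09 for Gosr1 than for Gosr2. The size for Bet1l and Bet1 is not settled, since 2 of 4 exosome arrays of Bet1l and none of Bet1 were above background. Stx12 fell 0.93 ± 0.09 further than Stx7. For Napa and Napg no difference is given, because the exosome values of Napg lay in the background and its fall is only a bound.

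Each of these 6 differences had exact permutation p = 0.0286 (n = 4 arrays per group), the smallest that 4 arrays against 4 allow, and 0.0367 after adjustment. All 6 kept their direction and this adjusted p, the smallest reachable here, after quantile normalization and after cyclic loess, but not always their size. The difference between Stx12 and Stx7 was -0.41 after quantile normalization and -0.60 after cyclic loess, and that between Gosr1 and Gosr2 was 0.88 and 0.81. Snap29 and Snap23 differed by -0.05 ± 0.16 in their change (exact permutation p = 0.714), and Vamp3 and Vamp2 by 0.17 ± 0.19 (exact permutation p = 0.429), both within the spread between arrays. A p above the threshold does not show that these pairs changed alike.

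**Figure D5:**
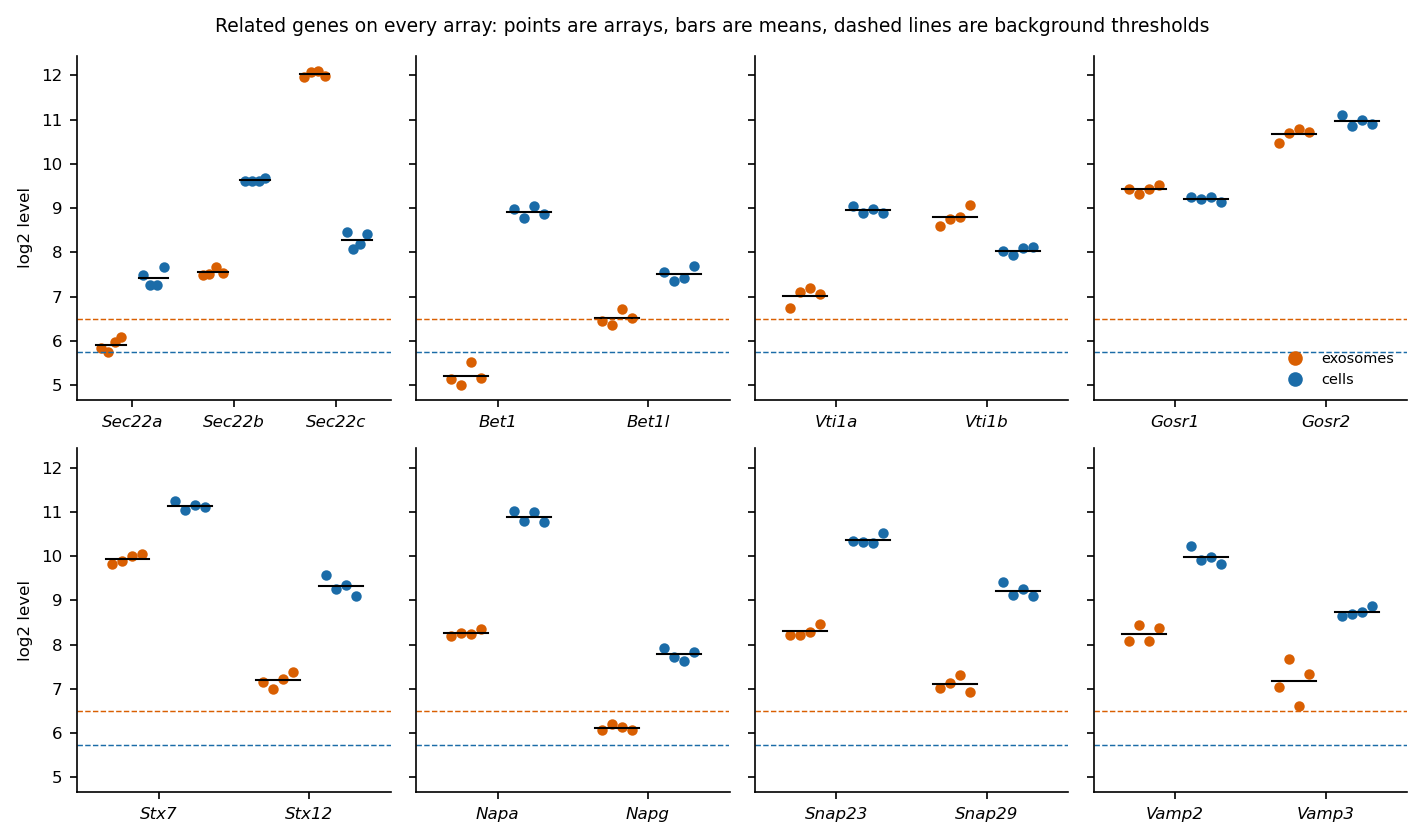
Log2 level of related genes on the y axis, with each point an array (exosomes left in orange, cells right in blue), black bars as means of 4 arrays and dashed lines as the background thresholds of 6.49 in exosomes and 5.74 in cells. Levels may be compared between groups for each gene but not between genes, and Sec22c and Vti1b are higher in exosomes beside relatives that are lower.

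By the background rule 26 of 43 members were above background on all 4 exosome arrays, where 35% of all genes were, and 38 on all 4 cell arrays, where 61.7% of all genes were. All 26 were among the 38. Of the other 12, Bet1l, Bnip1, Stx4a, Stx5a and Vamp7 passed on some exosome arrays, and Bet1, Napb, Napg, Sec22a, Stx1a, Stx8 and Stx18 on none. The 5 below background on every array of either group were Snap25, Snap91, Stx19, Stxbp5l and Stxbp6. Among all genes above background on all cell arrays, 56.5% were so on all exosome arrays. This share rose with the level in cells. At cell levels of 7 to 8, 8 to 9, 9 to 10 and 10 to 11, 32.9%, 60%, 83.8% and 97.3% of all genes were above background on all exosome arrays. Of the members 2 of 7, 8 of 11, 8 of 9 and 7 of 8 were. Whether the members differ from these shares was not tested.

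By class, 8 of 10 R-SNARE genes, with Sec22a and Sec22c counted by family, were lower as deposited and 2 higher (median log2 fold change -1.54), where 52.1% of all genes were lower and 14.6% higher. The median cell level of these 10 was 9.26, and among all genes with a cell level of 9 to 10, 87.1% were lower. Of 10 Qa genes 7 were lower and 1 higher (-1.11). For Qb genes 3 of 5 were lower and 2 higher (-0.30), all 5 Qc genes were lower (-1.03), 3 of 4 Qbc genes lower and 1 higher (-2.10), and 2 of 4 syntaxin-binding genes lower and 0 higher (-0.15). The median of the Qb genes was above 0 after quantile normalization (0.49) and cyclic loess (0.78), that of the Qa genes was 0.03 after cyclic loess, that of the Qc genes 0.17 after cyclic loess, and that of the syntaxin-binding genes 0.00 after quantile normalization. The medians of the R-SNARE, Qbc and disassembly genes were below 0 under each of the 4 scalings.

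Genes of the same pathway outside the family were taken from lists of SNARE partners and tethers, of which 57 of 65 were measured. Tethers, the long complexes that catch a vesicle before its SNAREs meet, and SM proteins, which template SNARE assembly, made up 30 of these. All 30 were called lower as deposited (median log2 fold change -2.14), where 52.1% of all genes were. Their median cell level was 8.79, and among all genes with a cell level of 8 to 9, 87% were lower, with a median of -1.58. Of the 30, 21 were lower and 6 higher after quantile normalization, and 21 and 7 after cyclic loess. Of the HOPS and CORVET tethers of endosomes and lysosomes all 6 measured were lower, with Vps41 9.33-fold lower (-3.22 ± 0.10). Of the exocyst, which tethers vesicles at the plasma membrane, all 8 were lower, with Exoc1 at least 6.74-fold lower. All 6 genes of the COG complex of the Golgi were lower under each of the 4 scalings, where 30.9% of all genes were, with Cog6 falling most (-2.72 ± 0.11). Their median cell level was 9.47, and among all genes with a cell level of 9 to 10, 87.1% were called lower as deposited.

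GARP, the tether for endosome to Golgi return, had 3 of 3 genes lower, with Vps53 at -2.40 ± 0.07, and the Dsl1 tether of the ER, which works with Stx18, had 3 of 3 lower, with Zw10 at -1.70 ± 0.08. After quantile normalization 2 of these 3 Dsl1 genes and 1 of the 3 GARP genes were called higher. Of 4 SM proteins all were lower, with Vps33b falling most (its exosome signal passed the background on 1 of 4 arrays, so no fold is given), and 2 were called higher after quantile normalization and after cyclic loess. Among 27 calcium sensors, complexins and priming factors, most of them genes of neurons, 4 were lower, 3 higher and 20 not called as deposited, where 52.1% of all genes were lower and 14.6% higher. Their median cell level was only 5.76, and among all genes with a cell level of 5 to 6, 15.2% were lower. The split of the 27 was 10 higher and 4 lower after quantile normalization, 12 and 3 after cyclic loess, and 0 higher and 24 lower after centring on background genes by limma. Snapin, a SNARE-associated protein, fell most (-2.19 ± 0.10), and Unc13c had the largest called difference upward (0.77 ± 0.16) with all of its 8 arrays below background.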

How the data were processed

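Total RNA of 4 exosome and 4 cell samples was measured, 1 array each. Expression Console, RMA and build mm8 are named in the submitters' processing notes, without versions or settings. The deposited values are on a log2 scale, and the series text says that the authors averaged a gene's core probesets. The number of arrays limits the precision, and arrays have no depth. Groups follow the sample titles.

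Of 23332 transcript clusters, 14996 had 1 gene symbol in the platform table given with the data, and of several clusters of a gene the brightest by its 8-array mean was taken. Levels were compared with limma 3.58.1 (R 4.3.3) by lmFit and eBayes, two-sided, on all transcript clusters with Benjamini-Hochberg adjustment over all of them, without a filter or a block. Fold changes are powers of 2 of differences in mean log2 value. A gene above background on no exosome array is given as a bound, its cell mean against the mean exosome threshold. The control probesets of the series text were not used here, and 843 chemosensory receptor clusters took their place. Same-numbered arrays of the groups did not deviate together (correlations -0.055 to 0.00133). With 4 arrays per group this cannot decide whether equal numbers mark a shared culture, and the main fit used no pairing.

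Every member was named, and array values were given for the 6 members called higher, for the 8 largest called falls and for related pairs. Of each partner list the largest called rise and fall were named. The members, lists, complexes and pairs were chosen with earlier results of these data known. Scripts were tested on simulated data. Results were recomputed with 3 other scalings, without dim signals, with a trended prior, array weights or a block on replicate number, with the mean of a gene's clusters, at stricter thresholds, with 3 other background rules and without single arrays. Protein and transcript sequences were not used here. Python 3.11.15 and matplotlib 3.10.9 drew the figures.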

Additional observations from a re-analysis of the deposited data

Results flagged for a closer look

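In 86 groups of 4 arrays (43 genes in exosomes and in cells), 1 array stood apart from the other 3 in 2 cases, where chance alone gives about 1 in 20. Stx6 was at 7.82 on exosome replicate 2, while the other 3 exosome arrays lay between 8.16 and 8.19. Vamp5 was at 9.73 on cell replicate 4, while the other 3 cell arrays lay between 9.43 and 9.48. Neither gene changed its direction or call when any single array was left out.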

How the results depend on the processing

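Scaling moved most results. After quantile normalization 13 SNARE genes were higher, 6 at least 2-fold higher and 6 at least 2-fold lower (median log2 fold change -0.35), with 6627 transcript clusters higher and 6582 lower (median 0.050) and 16 partner genes higher. After cyclic loess 20 SNARE genes were lower and 13 higher, 5 and 6 of them at least 2-fold (median -0.12), with 6490 clusters lower and 6799 higher (median 0.031) and 19 partners higher. After centring on background genes 1 SNARE gene was higher (median -1.97), with 16640 clusters lower and 1061 higher, and 54 partners lower and 0 higher by limma (3 as deposited). Quantile normalization turned Bet1l (0.14), Gosr2 (0.49), Stx16 (1.10), Stx17 (0.25), Stx1a (0.052), Stx2 (1.19), Stx6 (0.73), Stxbp4 (0.60), Stxbp5l (-0.0077) and Vamp5 (0.54). Cyclic loess turned Bet1l (0.17), Gosr2 (0.78), Stx16 (1.24), Stx17 (0.28), Stx1a (0.11), Stx2 (1.35), Stx6 (0.85), Stxbp4 (0.88), Stxbp5l (-0.039), Stxbp6 (-0.066), Use1 (0.27) and Vamp5 (0.75). Centring turned Gosr1 (-0.37), Snap25 (-0.30), Snap91 (-0.38), Stxbp5l (-0.50), Stxbp6 (-0.47) and Ykt6 (-0.26). The difference between Snap29 and Snap23 was 0.21 after quantile normalization, 0.054 after cyclic loess and -0.14 to 0.064 with single arrays left out. The cause of these shifts was not tested.

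Filtering dim signals gave a SNARE median of -1.54 and 1479 clusters higher, since fewer were tested. At an adjusted p below 0.01, 3 SNARE genes, 1 partner and 2346 clusters were higher. With array weights 6 partners were higher, and with single arrays left out 2 to 5, against 3. Leaving out single arrays gave 31 to 32 SNARE genes lower, 5 to 6 higher and medians of -1.46 to -1.26. With the replicate block 31 were lower and 5 higher, and the calls of Gosr1 (adjusted p = 0.09) and Gosr2 (0.0794) were lost. It changed no other call of a SNARE gene. For the differences between related genes the block was not run, because an exact test by sign flips of 4 pairs cannot go below p = 0.125. A Welch test against background genes counted 40 SNARE genes above background in exosomes, against 26, and the 99th percentile counted 20.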
